A study of Rattus norvegicus with 24 samples.

Results

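GABA-A receptors are chloride channels opened by GABA, the main inhibitory transmitter of the brain. Most neurons of the nucleus accumbens (NAc), the projection neurons of the ventral striatum, both release GABA and carry these receptors. Each channel is assembled from alpha and beta subunits with a gamma or delta subunit, and the subunits present set where the channel sits and how it responds to drugs. The 7 subunit genes described here were Gabra2, Gabra3, Gabra4 and Gabra5 (alpha), Gabrb1 and Gabrb2 (beta) and Gabrd (delta). They were taken by name from the RNA-Seq files, where they made up 7 of the 19 GABA-A and GABA-rho subunit genes found and 7 of 23950 genes in all.

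RNA-Seq was performed on the NAc of Sprague Dawley pups at postnatal day (P) 14, in 24 libraries. There were 6 groups of 4 pups, each pup from a separate litter, namely saline (SAL), postnatal oxycodone (PNO) and in utero oxycodone (IUO) in both the F1 and the F2 generation. F0 females of the IUO line were gavaged with oxycodone (oxy) at 10 mg/kg/day for 5 days, rising by 0.5 mg/kg/day over 10 days to 15 mg/kg/day, and dosing went on through mating and gestation until weaning. F0 dams of the PNO line received 15 mg/kg/day from birth of the litter until weaning, so that their pups met the drug through milk. No F1 animal was dosed itself, and F2 pups were born to undosed F1 females. Pups of either sex were used, picked at random, and the labels do not say which were male. The values are FPKM (fragments mapped to a gene, scaled to transcript length and to all mapped fragments), a level per gene length. The FPKM of one library summed to 535866 to 766781 over all genes, and read depth is unknown. Markers of striatal projection neurons were present in every library, with Ppp1r1b (DARPP-32) at 167.35 to 549.36 FPKM and Adora2a at 26.58 to 101.29 FPKM. The lowest of the 10 listed was Bcl11b, at 0.05 to 28.45 FPKM (median 1.47). Markers of thalamus, cortical excitatory neurons and hypothalamus were also measured, at levels that differed between libraries. In bulk tissue, fewer cells of a type and less RNA per cell cannot be told apart.

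One library stood apart most for these genes. F2 PNO replicate 1 was the lowest of the 24 libraries for Gabra2 (4.18 FPKM, others 6.12 to 15.55), for Gabra3 (4.29 FPKM, others 10.83 to 19.90) and for Gabrb2 (0.21 FPKM, others 0.87 to 8.81). It was the highest for Gabrb1 (10.36 FPKM, others 3.29 to 7.06). Its Gabra4, Gabra5 and Gabrd levels lay within the range of the other libraries. The same library had the lowest mean log2 level of 6 pan-neuronal markers (6.33, others 7.13 to 7.68) and the highest of 5 oligodendrocyte markers (8.53, others 6.40 to 7.90), with myelin basic protein (Mbp) at 1737.94 FPKM against 405.13 to 1226.03. The part of this difference in the subunit levels was not tested. Some member differences that involve F2 PNO are given below with and without this library, and others moved too. For F2 IUO minus F2 PNO, leaving it out moved Gabra3 from 0.41 to -0.02 and Gabrb1 from -0.46 to -0.18. For F2 PNO minus F1 PNO it moved Gabra3 from -0.41 to 0.02 and Gabrb1 from 0.08 to -0.20. F2 IUO replicate 4 also stood apart, with 7532 genes at 0 (others 4782 to 7176) and 12583 genes at 1 FPKM or more, where F2 PNO replicate 1 had 12458 and the other 22 libraries 13280 to 14122. It was the lowest F2 IUO library for Gabra2, Gabra3, Gabra4, Gabra5 and Gabrb2.

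The windows of 250 bases just before the RefSeq start are shown for 3 members because the results turn most on Gabrb2 and Gabra4, and because Gabrb1 lies beside Gabra4 on chromosome 14 and shares a motif with Gabrb2. The sequences are from RefSeq on GRCr8, 5′ to 3′ on the strand of the gene, with capitals marking matches to GCGCATG on either strand, a stretch of the motif known for the transcription factor NRF-1.
Gabrb2 (chr10:27439543-27439792, plus strand): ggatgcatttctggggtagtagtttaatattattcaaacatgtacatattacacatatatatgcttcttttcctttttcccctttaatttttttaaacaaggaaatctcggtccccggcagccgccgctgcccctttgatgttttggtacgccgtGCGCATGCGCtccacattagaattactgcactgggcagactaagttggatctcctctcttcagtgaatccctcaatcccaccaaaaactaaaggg
Gabrb1 (chr14:36902894-36903143, minus strand): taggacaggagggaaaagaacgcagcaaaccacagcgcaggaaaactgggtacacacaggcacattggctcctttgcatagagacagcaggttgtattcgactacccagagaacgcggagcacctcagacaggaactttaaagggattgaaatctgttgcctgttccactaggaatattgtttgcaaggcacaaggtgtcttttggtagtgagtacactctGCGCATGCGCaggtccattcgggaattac
Gabra4 (chr14:36944497-36944746, plus strand): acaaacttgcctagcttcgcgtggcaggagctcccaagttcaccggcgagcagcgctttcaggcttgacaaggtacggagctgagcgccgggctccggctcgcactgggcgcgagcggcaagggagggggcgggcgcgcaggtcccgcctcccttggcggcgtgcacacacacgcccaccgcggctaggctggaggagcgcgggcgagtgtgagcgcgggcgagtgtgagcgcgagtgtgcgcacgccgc
A window was found for 6 of the 7 members (none for Gabra2), and the motif was present in the windows of Gabrb1 and Gabrb2, in both as overlapping matches on the 2 strands. Of 33469 windows of all genes, 1090 (3.26%) held it. The matches ended 86 bases before the start of Gabrb2 and 20 bases before that of Gabrb1. The Gabra4 window held 33 CpG dinucleotides, that of Gabra5 37 and that of Gabrd 35, against a median of 5 over all windows. The windows of Gabrb1 and Gabrb2 held 8 each and that of Gabra3 held 0. By RefSeq, Gabra2, Gabra4 and Gabrb1 lie on chromosome 14 with Gabrg1, Gabra5 on chromosome 1 with Gabrg3, Gabrb2 on chromosome 10 with Gabra6, Gabrd on chromosome 5 and Gabra3 on chromosome X. These letters describe the reference and do not show that a factor was bound in these pups.

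Over the 24 libraries, Gabrd was the highest member at 24.8 ± 5.39 FPKM (mean ± SD, n = 24). The delta subunit it encodes takes the place of gamma in channels outside the synapse that carry tonic inhibition. Gabra5 followed at 22.5 ± 5.54 FPKM and Gabra4, the alpha subunit most often paired with delta in forebrain, at 21.1 ± 6.52 FPKM. Gabra3 was at 14.0 ± 3.16 FPKM and Gabra2, an alpha subunit of striatal synapses, at 12.1 ± 2.87 FPKM. The beta members were lower, with Gabrb1 at 5.20 ± 1.43 FPKM and Gabrb2 at 4.59 ± 2.04 FPKM. Gabra6, an alpha subunit known from cerebellar granule cells and not a member, averaged 0.0179 FPKM. All 7 members passed the filter on low values in every comparison.

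The order of the group means differed from gene to gene. Gabra2 ran from F1 SAL (14.5 FPKM) through F1 PNO, F1 IUO, F2 PNO and F2 SAL to F2 IUO (9.01 FPKM). All F1 means thus lay above all F2 means. Without F2 PNO replicate 1 the F2 PNO mean of Gabra2 was 13.32 FPKM, beside 13.34 in F1 IUO and 10.96 in F2 SAL. Gabra4 ran from F1 PNO (29.3 FPKM) and F2 PNO (24.8 FPKM) through F1 IUO, F1 SAL and F2 SAL to F2 IUO (16.1 FPKM), so that the PNO means came first in both generations. Gabrb2 ran from F1 IUO (7.25 FPKM) through F1 SAL, F1 PNO, F2 SAL and F2 IUO to F2 PNO (3.18 FPKM), but without F2 PNO replicate 1 the F2 PNO mean was 4.17 FPKM, between F1 SAL (5.72 FPKM) and F1 PNO (3.96 FPKM). Gabra3 was led by F1 SAL (16.3 FPKM), Gabra5 by F2 IUO (26.1 FPKM), Gabrb1 by F2 PNO (6.17 FPKM) and Gabrd by F1 IUO (29.0 FPKM). When that library was left out, Gabrb1 was led by F1 PNO (5.53 FPKM) and F2 PNO was at 4.77 FPKM, under the 3 F1 means. For all 35 pairs of neighbours in these orders the libraries of both groups overlapped. In 2 of them, F1 IUO to F1 SAL and F1 SAL to F1 PNO for Gabrb2, the means differed by more than either SD.

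**Figure D1:**
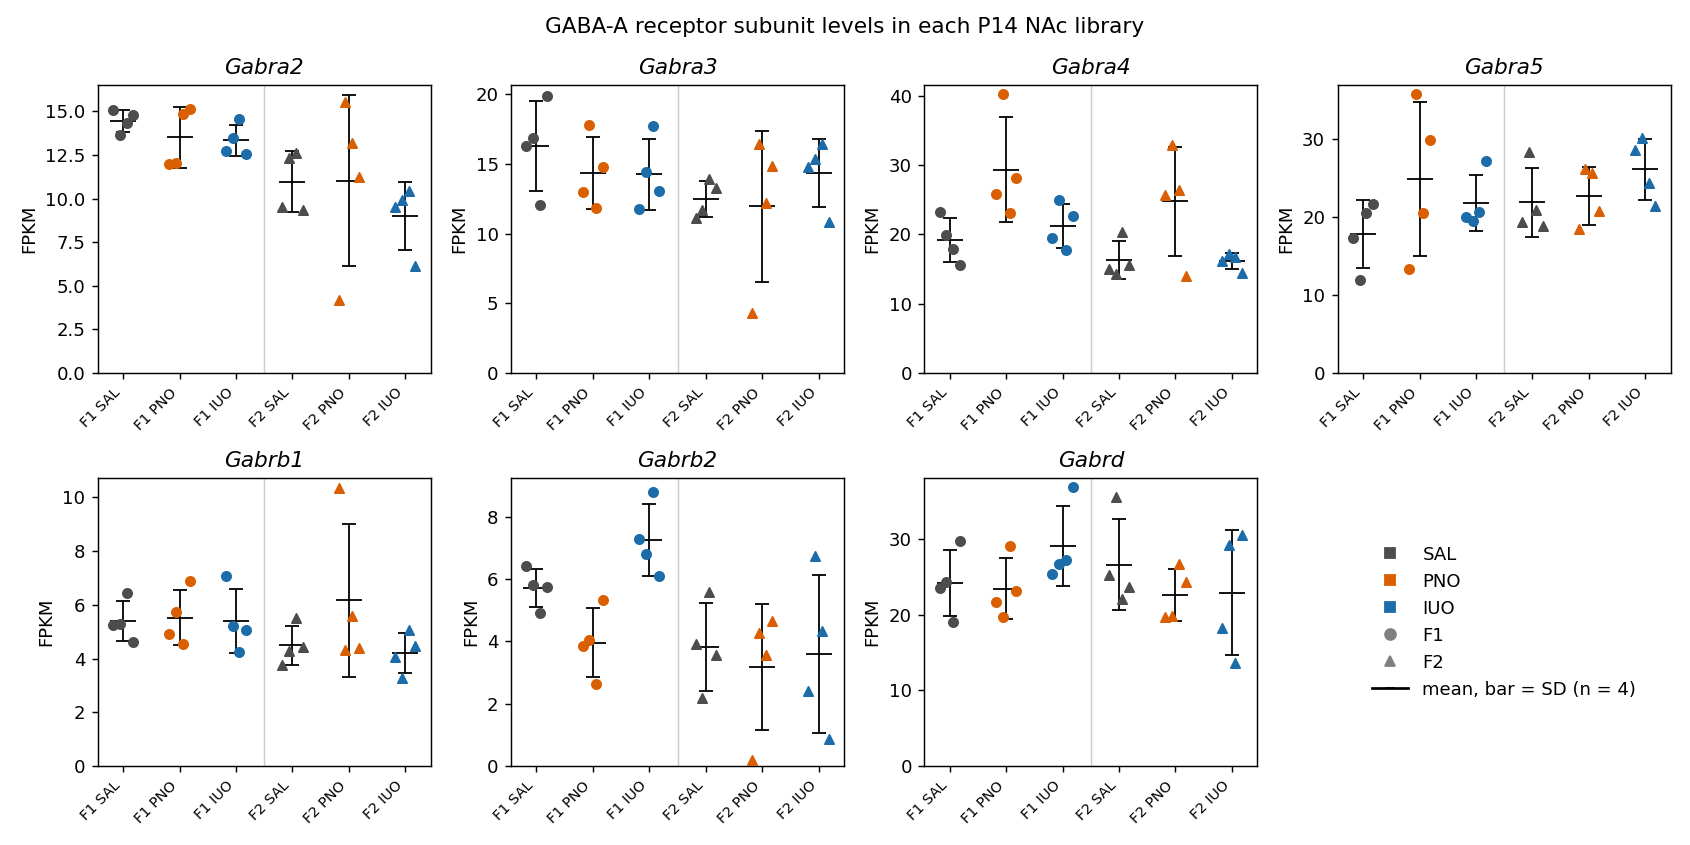
FPKM of each member (y axes, from 0) in the 4 libraries of each group (x axes), with circles for F1, triangles for F2, and black marks for mean ± SD. The low triangles of F2 PNO for Gabra2 (4.18), Gabra3 (4.29) and Gabrb2 (0.21), and the high one for Gabrb1 (10.36), are all from F2 PNO replicate 1.

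Tests were made with limma on log2(FPKM + 0.1) over all genes, so that a difference of 1 is a doubling of FPKM + 0.1. After Benjamini-Hochberg adjustment over all genes tested, 0 of the 63 tests of a member between groups had a p under 0.05 in limma, and 11 had an unadjusted p under 0.05. The share of all genes with an adjusted p under 0.05 was 0.133% for F1 IUO against PNO, 0.00576% for F2 PNO against SAL, 0.0343% for F2 SAL against F1 SAL and 0.0288% for F2 PNO against F1 PNO, and 0% in the other 5 comparisons. The share of all genes with an unadjusted p under 0.05 was 3.91% to 16.5% over the 9 comparisons. The 11 member tests involved Gabra2, Gabra3, Gabra4 and Gabrb2. Gabra5, Gabrb1 and Gabrd had none, and over all libraries they spanned 11.87 to 35.77, 3.29 to 10.36 and 13.64 to 36.84 FPKM. The exact permutation test of 4 against 4 libraries cannot give a two-sided p below 0.0286, which it gives when every library of one group lies above every library of the other.

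The comparison of F1 PNO with F1 SAL asked what exposure through milk alone did to the directly exposed pups. Of the 7 members, 1 was higher and 1 lower at an unadjusted p under 0.05, where 13.9% of 17494 genes passed in either direction, and 0 members had groups that did not overlap, where 8.27% of all genes did. The median log2 difference was -0.04 over the members and -0.05 over all genes. Gabra4 in F1 SAL was at 23.15, 19.91, 17.94 and 15.61 FPKM. In F1 PNO it was at 25.82, 40.23, 23.06 and 28.10 FPKM. The lowest PNO library lay just under the highest SAL library and the other 3 lay above all of SAL. The means were 29.3 ± 7.57 and 19.2 ± 3.19 FPKM (SD, n = 4 each), a 1.53-fold ratio. Gabra4 thus differed by 0.59 ± 0.18 on the log2 scale (SE, unadjusted p = 0.00950, adjusted p = 0.248 in limma), and the exact permutation test gave p = 0.0571. Without F1 PNO replicate 2 (40.23 FPKM) the difference was 0.43 (unadjusted p = 0.0182 in limma).

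Gabrb2, which encodes the beta subunit of the most common synaptic receptor in adult brain, was lower in the same comparison. In F1 SAL it was at 6.41, 5.80, 4.91 and 5.74 FPKM. In F1 PNO it was at 3.85, 4.04, 2.63 and 5.32 FPKM, so that 3 of the 4 PNO libraries were under all of SAL. The log2 difference was -0.55 ± 0.20 (SE, unadjusted p = 0.0227, adjusted p = 0.293 in limma), and without F1 SAL replicate 1 it was -0.50 with an unadjusted p of 0.0579. Gabra3 and Gabra2 had log2 differences of -0.17 and -0.10 and Gabra5 of 0.42, with unadjusted p of 0.348, 0.363 and 0.200 in limma. Gabrd and Gabrb1 were near 0, at -0.04 and 0.03.

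All 8 thalamus markers also had a higher mean in F1 PNO than in F1 SAL. Their summed FPKM was 132.45 to 334.59 in F1 PNO and 22.99 to 168.78 in F1 SAL, and none was at 0 throughout either group. F1 PNO replicate 2 had the highest mean log2 level of the list among the 24 libraries (4.24, others up to 3.90). The mean log2 level of the list was 3.63 in F1 PNO and 2.31 in F1 SAL (exact permutation p = 0.114). With that level as a covariate, the Gabra4 difference between F1 PNO and F1 SAL was 0.23 ± 0.17 (SE, unadjusted p = 0.203 in limma). Exposure and thalamus level cannot be told apart between these groups. All 10 striatal projection neuron markers had a lower mean in F1 PNO than in F1 SAL (list level 5.09 against 5.63, exact permutation p = 0.200), and with that list as a covariate the difference was 0.41 with an unadjusted p of 0.059. Over the 24 libraries, Gabra4 and the thalamus level had a Pearson r of 0.595 (permutation p = 0.00238, 0.0417 after Benjamini-Hochberg adjustment over 35 relations of members with marker lists) and a Spearman rho of 0.622 (permutation p = 0.00156, 0.0546 adjusted). The permutations moved libraries across groups, so these p values also reflect differences between groups. Centred on group means r was 0.558, and leaving out the 2 libraries farthest from the median thalamus level gave 0.523. Within F1 r was 0.742 and within F2 it was 0.442, over 12 libraries each.

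**Figure D2:**
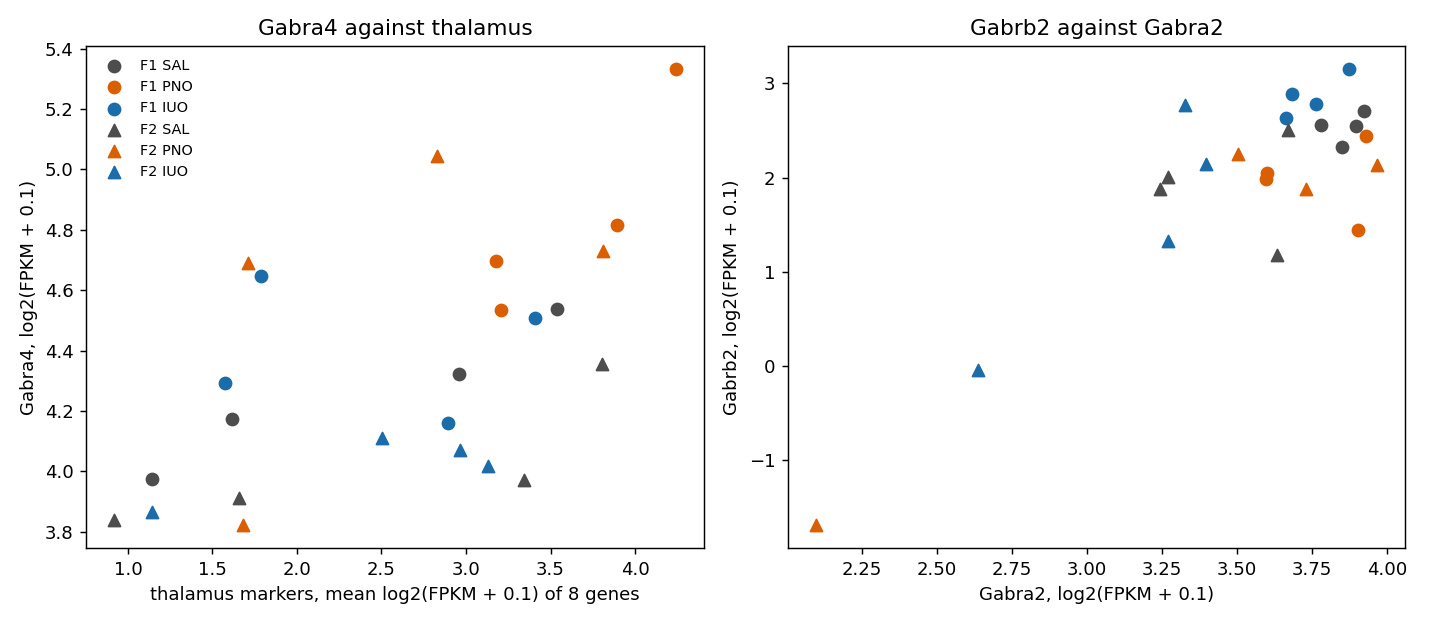
Left, Gabra4 (y axis) against the mean level of 8 thalamus markers (x axis), both on the log2(FPKM + 0.1) scale, 1 point per library; the F1 PNO circles lie at the upper right (r = 0.595 over 24 libraries). Right, Gabrb2 against Gabra2 on the same scale; the lowest point of both is F2 PNO replicate 1 (r = 0.83 with it and 0.64 without it).

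Of 30 other genes tested from the pathway (other subunits, GABA synthesis and transport, postsynaptic and trafficking proteins, chloride transporters and GABA-B receptor), 0 were higher and 9 lower in F1 PNO than in F1 SAL at an unadjusted p under 0.05, where 6.11% of all genes were higher and 7.83% lower. Gabrg3, a gamma subunit, was lower by a log2 difference of -0.80, the scale of all values here. Of 7 genes of GABA synthesis and transport, 3 were lower, namely Slc32a1, the vesicular GABA transporter (-0.61), Abat, the GABA transaminase (-0.44), and Gad2, a GABA-synthesizing enzyme (-0.44). Of 13 postsynaptic and trafficking genes 4 were lower, including Shisa7 (-0.64), Lhfpl4 (-0.54) and Nlgn2 (-0.41), whose products hold GABA-A receptors at synapses. Slc12a5, the chloride exporter KCC2, was at -0.43. The smallest adjusted p among these genes was 0.231 in limma. All 10 striatal projection neuron markers also had a lower mean in F1 PNO (list level 5.09 against 5.63). Over 18 alternatives, which include marker covariates, the unadjusted p in limma rose above 0.05 in 8 for Gad2 and in 6 for Slc32a1. It did so in 7 for Clptm1, the remaining trafficking gene, and in at most 2 for the others.

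Between F1 IUO and F1 SAL, the test of exposure from conception onward, 0 of 7 members had an unadjusted p under 0.05 in limma, where 3.91% of 17380 genes did (1.93% higher and 1.97% lower), and 0 had groups that did not overlap, where 2.54% of all genes did. Over the members the median log2 difference was 0.15, and over all genes 0.01. Gabrb2 had the smallest p. In F1 IUO it was at 7.30, 6.80, 8.81 and 6.10 FPKM, so that 3 of the 4 libraries were above the highest SAL library (6.41). The difference was 0.33 ± 0.15 on the log2 scale (SE, unadjusted p = 0.0590, adjusted p = 0.999 in limma). All 8 hypothalamus markers had a higher mean in F1 IUO than in F1 SAL (summed FPKM 46.10 to 162.08 against 11.96 to 60.05, exact permutation p = 0.0571), and their part in this difference was not tested. Gabra5 (0.31) and Gabrd (0.27) were next in size and Gabrb1 was at -0.02, and all 7 adjusted p were 0.999. Among 30 other pathway genes, 0 were higher and 0 lower at an unadjusted p under 0.05.

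The F1 IUO and F1 PNO groups differed in whether exposure included gestation, and here Gabrb2 had its largest difference within a generation. Of the 7 members, 1 was higher and 1 lower in IUO at an unadjusted p under 0.05, where 16.5% of 17306 genes passed. The median log2 difference was -0.01 over the members and 0.03 over all genes. The 4 IUO libraries of Gabrb2 (6.10 to 8.81 FPKM) all lay above the 4 PNO libraries (2.63 to 5.32 FPKM), as the groups failed to overlap for 10.5% of all genes. The means were 7.25 ± 1.15 and 3.96 ± 1.10 FPKM (SD, n = 4 each), a 1.83-fold ratio. On the log2 scale the difference was 0.89 ± 0.22 (SE, unadjusted p = 0.00251, adjusted p = 0.129 in limma), and the exact permutation p was 0.0286. Leaving out each library in turn gave 0.71 to 1.04, with an unadjusted p of at most 0.00932.

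Gabra4 was lower in F1 IUO than in F1 PNO, at 19.50, 24.96, 17.77 and 22.66 FPKM in IUO. Of these, 3 lay under the lowest PNO library (23.06). Its log2 difference was -0.44 ± 0.18 (SE, unadjusted p = 0.0353, adjusted p = 0.265 in limma), and -0.28 with the thalamus level as a covariate (unadjusted p = 0.291 in limma). Without F1 PNO replicate 2 it was -0.28 (unadjusted p = 0.0883 in limma), and the unadjusted p in limma was also above 0.05 without F1 PNO replicate 4, F1 IUO replicate 1 or F1 IUO replicate 3. Gabrd was higher in IUO by 0.31 (unadjusted p = 0.0769), and Gabra2, Gabra3 and Gabrb1 lay within 0.05 of 0.

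Hypothalamus markers also separated these groups. Their summed FPKM was 46.10 to 162.08 in F1 IUO and 5.49 to 15.23 in F1 PNO, 6 of 8 had a higher mean in IUO, and none was at 0 throughout either group. Their part in the Gabrb2 difference was not tested. The thalamus list level was 2.42 in F1 IUO, and 7 of its 8 markers had a lower mean there than in F1 PNO (exact permutation p = 0.0857). With the thalamus level as a covariate 1 member was left with an unadjusted p under 0.05.

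Of 30 other pathway genes, 7 were higher and 0 lower in F1 IUO than in F1 PNO at an unadjusted p under 0.05, where 10.1% of all genes were higher and 6.41% lower. One of them passed after adjustment, as 0.133% of all genes did. Lhfpl4, which links GABA-A receptors to neuroligin 2, rose from 16.1 ± 1.46 FPKM in PNO to 27.1 ± 2.08 FPKM in IUO (SD, n = 4 each), a log2 difference of 0.75 ± 0.11 (SE, adjusted p = 0.0468 in limma). That adjusted p ran from 0.0463 to 0.431 over 18 alternatives and was under 0.05 in 1 of them. Gabrg3 (0.62), Slc32a1 (0.60), Nlgn2 (0.54), Slc12a5 (0.42), Abat (0.37) and Iqsec3 (0.30) were also higher, with adjusted p from 0.112 to 0.265. F1 PNO is one side of both this comparison and the one with F1 SAL, so these lists are not independent. Of 10 striatal projection neuron markers, 9 had a higher mean in F1 IUO than in F1 PNO (list level 5.48 against 5.09).

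In F2, whose pups were not dosed and whose F1 mothers had been exposed as fetuses or through milk, no member had an unadjusted p under 0.05 in limma against F2 SAL. The share of all genes that did was 10.8% of 17367 for PNO and 8.49% of 17097 for IUO. No member had groups that did not overlap, where 7.01% of all genes did for PNO and 5.11% for IUO. The median log2 difference over the members was -0.13 for PNO and -0.10 for IUO, and over all genes -0.08 for both. The PNO medians without F2 PNO replicate 1 were 0.19 over the members and 0.02 over all genes. Gabra4 in F2 SAL was at 14.94, 14.21, 20.39 and 15.60 FPKM. In F2 PNO it was at 25.69, 32.92, 26.43 and 14.03 FPKM, so that 3 libraries lay above all of SAL and 1 lay below. The means were 24.8 ± 7.86 and 16.3 ± 2.79 FPKM (SD, n = 4 each), a 1.52-fold ratio beside the 1.53-fold ratio of F1. The difference was 0.55 ± 0.25 on the log2 scale (SE, unadjusted p = 0.0534, adjusted p = 0.462 in limma, exact permutation p = 0.143). Without F2 PNO replicate 1 it was 0.51 (unadjusted p = 0.0908 in limma). The thalamus level was 2.51 in F2 PNO and 2.43 in F2 SAL, with 6 of 8 markers higher in PNO and a summed FPKM of 37.78 to 224.07 and 23.40 to 199.23. With that level as a covariate the Gabra4 difference was 0.54 (unadjusted p = 0.0427, adjusted p = 0.412 in limma).

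For 4 other members the difference moved with the library that stood apart. Against F2 SAL, the log2 differences of Gabra2, Gabra3 and Gabrb2 were -0.13, -0.22 and -0.75 with F2 PNO replicate 1 and 0.28, 0.21 and 0.19 without it. That of Gabrb1 was 0.36 with it and 0.09 without it. None of these had an unadjusted p under 0.05 either way. The 5 microglia markers, all lower in F2 PNO, had a list level of 3.58 against 4.02 in F2 SAL with no overlap of libraries (exact permutation p = 0.0286), and their part in these differences was not tested.

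Of 29 other pathway genes tested between F2 PNO and F2 SAL, 1 was higher and 8 were lower at an unadjusted p under 0.05, where 3.97% of all genes were higher and 6.83% lower. Of 7 genes of GABA synthesis and transport, 3 were lower, namely the GABA transporters Slc6a13 (-1.51) and Slc32a1 (-0.50) and the transaminase Abat (-0.46). Among the postsynaptic and trafficking genes, Lhfpl4 (-1.02), Iqsec3 (-0.50), Gabarapl1 (-0.26) and Clptm1 (-0.23) were lower. Slc12a2, the chloride importer NKCC1, was higher by 0.57, and Gabbr1, a GABA-B receptor subunit, was lower (-0.23). The smallest adjusted p was 0.284 in limma. Leaving out F2 PNO replicate 1, 1 of 29 was higher and 4 were lower, namely Slc6a13 (-1.95), Slc32a1 (-0.54), Lhfpl4 (-0.51) and Gabarapl1 (-0.27), where 11.7% of all genes passed in either direction. Of 6 pan-neuronal markers 5 had a lower mean in F2 PNO than in F2 SAL (list level 7.08 against 7.47, exact permutation p = 0.0571), and their part in these differences was not tested. The F2 PNO list level was 6.33 in replicate 1 and 7.43, 7.33 and 7.23 in replicates 2, 3 and 4. Between F2 IUO and F2 SAL, 0 of 29 were higher and 3 lower (Gabrg3, Gabrg1 and Shisa7), where 3.52% and 4.97% of all genes were.

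Between F2 IUO and F2 PNO, 1 of 7 members had an unadjusted p under 0.05, where 7.07% of 17090 genes did. It was lower in IUO, as 2.48% of all genes were, and 0 members had groups that did not overlap, where 4.74% of all genes did. The median log2 difference was -0.05 over the members and -0.01 over all genes, and -0.18 and -0.10 without F2 PNO replicate 1. Gabra4 in F2 IUO was at 16.09, 17.18, 16.71 and 14.48 FPKM, the narrowest of its groups. Its log2 difference was -0.55 ± 0.24 (SE, unadjusted p = 0.0434, adjusted p = 0.684 in limma), and the exact permutation test gave p = 0.143. All 6 cortical excitatory neuron markers had a higher mean in F2 IUO than in F2 PNO (list level 3.74 against 2.42, exact permutation p = 0.143). The F2 PNO list level was 0.10 in replicate 1 and 3.18, 2.40 and 4.01 in replicates 2, 3 and 4. With the cortical list level as a covariate the Gabra4 difference was -0.42 (unadjusted p = 0.153 in limma). Its unadjusted p rose above 0.05 without any one of F2 PNO replicates 1, 2 and 3 or of the 4 F2 IUO libraries. Without F2 PNO replicate 4 (14.03 FPKM) the difference was -0.80 (unadjusted p = 0.000403 in limma). Gabra2 had a difference of -0.17 with F2 PNO replicate 1 and of -0.58 without it (unadjusted p = 0.0291, adjusted p = 0.594 in limma). Gabrb2 had 0.41 with that library and -0.54 without it (unadjusted p = 0.384 in limma). Of 29 other pathway genes, 0 were higher and 0 lower at an unadjusted p under 0.05, and 2 were higher and 1 lower without that library.

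**Figure D3:**
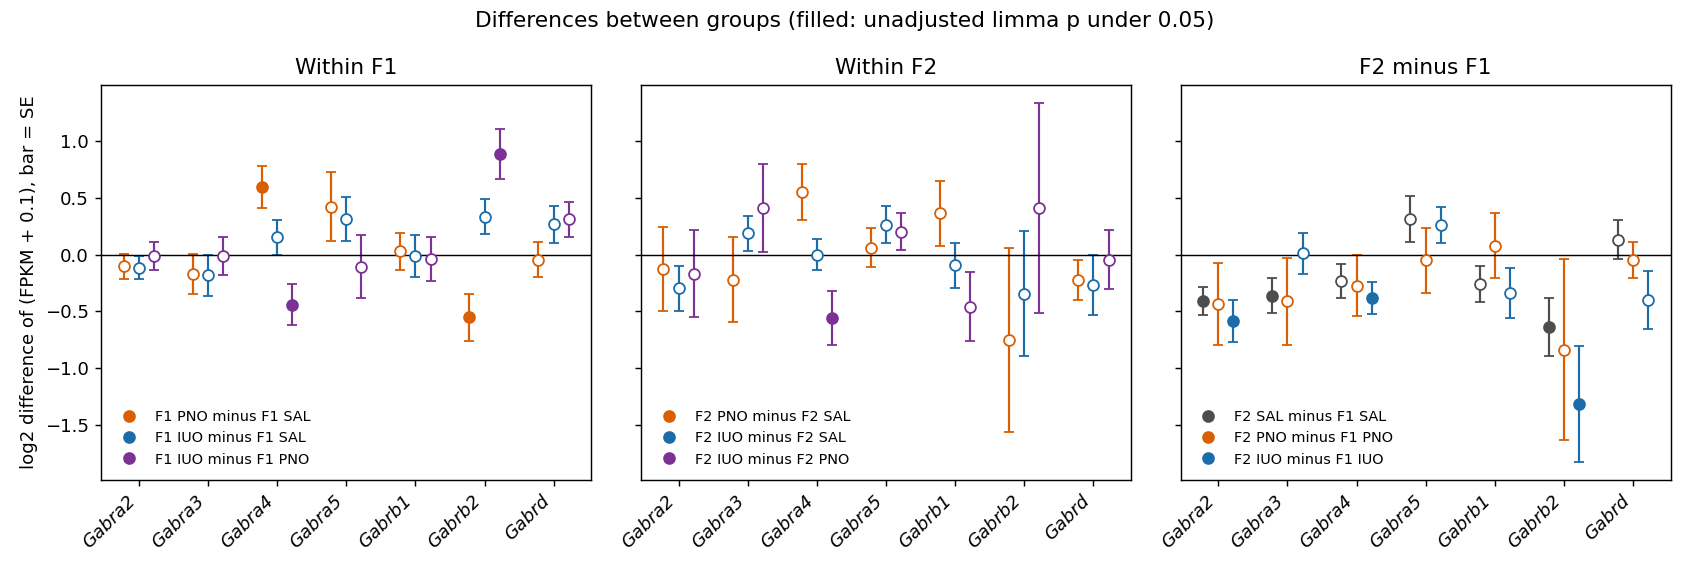
Log2 differences of FPKM + 0.1 (y axis, bars are SE from limma) for each member (x axis) within F1, within F2 and between generations. Filled points have an unadjusted p under 0.05 in limma (11 of 63), where 3.91% to 16.5% of all genes did in each comparison. No point has an adjusted p under 0.05. The widest bars are those of Gabrb2 in comparisons that hold F2 PNO.

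The generations were compared within each treatment. Generation, time of sampling and handling of the F1 and F2 litters cannot be told apart here. In saline pups, 3 of 7 members were lower in F2 than in F1 at an unadjusted p under 0.05 and 0 were higher, where 8.48% of 17497 genes passed (4.69% lower and 3.78% higher). The median log2 difference was -0.26 over the members and -0.02 over all genes. Gabra2 in F1 SAL was at 15.08, 13.64, 14.32 and 14.81 FPKM. In F2 SAL it was at 9.54, 12.30, 12.63 and 9.37 FPKM, and the groups did not overlap, as for 4.98% of all genes. The Gabra2 difference was -0.41 ± 0.12 on the log2 scale (SE, unadjusted p = 0.00878, adjusted p = 0.569 in limma, exact permutation p = 0.0286), and -0.48 to -0.34 without each library in turn.

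Gabrb2 was at 3.92, 2.17, 5.59 and 3.58 FPKM in F2 SAL, with 3 libraries under all of F1 SAL. Its log2 difference was -0.64 ± 0.25 (SE, unadjusted p = 0.0309, adjusted p = 0.585 in limma), and without F2 SAL replicate 2 (2.17 FPKM) it was -0.40 (unadjusted p = 0.0591 in limma). The unadjusted p also rose above 0.05 without F1 SAL replicate 1, 2 or 4 or F2 SAL replicate 4. Gabra3, which encodes an alpha subunit and lies on the X chromosome, was at 16.26, 16.87, 12.06 and 19.90 FPKM in F1 SAL and at 11.11, 11.69, 13.89 and 13.31 FPKM in F2 SAL. Its groups overlapped, and the log2 difference of -0.36 ± 0.16 (SE, unadjusted p = 0.0435, adjusted p = 0.585 in limma) lost its unadjusted p under 0.05 without any one of 6 of the 8 libraries, F1 SAL replicate 3 and F2 SAL replicate 3 being the exceptions. The 3 Y-linked genes found summed to 27.20 to 36.08 FPKM in F1 SAL and to 0.03 to 2.57 FPKM in F2 SAL. Y-linked expression and generation moved together between these groups and cannot be told apart. In the other 4 groups the same sum spanned 0.15 to 37.30 FPKM in F1 IUO and 1.24 to 44.50 in F1 PNO. It spanned 0.57 to 36.71 FPKM in F2 IUO and 0 to 30.16 in F2 PNO. The mean log2 level of these genes was 3.29 in F1 SAL, 1.23 in F1 PNO and 0.20 in F1 IUO. In F2 it was -1.50 in SAL, -1.66 in PNO and 1.93 in IUO. Y-linked levels thus also differed within generations, and their part in the treatment comparisons was not tested.

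In IUO pups, 3 members were lower in F2 and 0 were higher at an unadjusted p under 0.05, where 15% of 16916 genes passed (9.65% lower and 5.35% higher). Over the members the median log2 difference was -0.39, and over all genes -0.09. Gabra2 in F1 IUO was at 12.75, 13.47, 14.56 and 12.57 FPKM. In F2 IUO it was at 9.54, 9.94, 10.43 and 6.12 FPKM, all under the lowest F1 library. The means were 13.3 ± 0.90 and 9.01 ± 1.96 FPKM (SD, n = 4 each), 1.48-fold higher in F1. Gabra2 differed by -0.59 ± 0.18 on the log2 scale (SE, unadjusted p = 0.00986, adjusted p = 0.236 in limma), and by -0.67 to -0.41 without each library in turn. Gabra4 also did not overlap, with 17.77 to 24.96 FPKM in F1 IUO and 14.48 to 17.18 FPKM in F2 IUO, where 10.7% of all genes did not. Its log2 difference was -0.39 ± 0.14 (SE, unadjusted p = 0.0202, adjusted p = 0.260 in limma, exact permutation p = 0.0286), and -0.30 without F1 IUO replicate 2 (unadjusted p = 0.0731 in limma).

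Gabrb2 in F2 IUO was spread widely, at 2.41, 6.75, 4.32 and 0.87 FPKM, and 3 of these lay under the lowest F1 IUO library. The F1 mean was 2.02-fold higher. F2 IUO minus F1 IUO gave a log2 difference of -1.31 ± 0.51 (SE, unadjusted p = 0.0274, adjusted p = 0.278 in limma), and without F2 IUO replicate 4 (0.87 FPKM) it was -0.78. The unadjusted p in limma rose to 0.0628 without F1 IUO replicate 3, and was also above 0.05 without F1 IUO replicate 1 or F2 IUO replicate 1. Striatal projection neuron markers were lower in F2 IUO for 9 of 10 genes, with a summed FPKM of 408.16 to 1009.40 in F2 and 836.69 to 1179.54 in F1 (list level 4.96 against 5.48, exact permutation p = 0.257). The 3 endothelial markers found summed to 2.60 to 6.87 FPKM in F2 IUO and 7.78 to 10.91 FPKM in F1 IUO. Cldn5 was at 0 in every library of both groups, and Flt1 and Kdr had a lower mean in F2 IUO. With the striatal list level as a covariate the log2 differences were -0.73 for Gabra2, -0.40 for Gabra4 and -1.52 for Gabrb2, with unadjusted p of 0.00423, 0.0369 and 0.0290 in limma. The part of the endothelial list was not tested. Without F2 IUO replicate 4, the library with the most genes at 0, Gabra2, Gabra4 and Gabrb2 differed by -0.41, -0.34 and -0.78 (unadjusted p of 0.00963, 0.0443 and 0.0374 in limma), and Gabra5 was higher in F2 IUO by 0.35 (unadjusted p = 0.0469, adjusted p = 0.426 in limma).

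In PNO pups, 0 of 7 members had an unadjusted p under 0.05 between generations in limma, where 4.76% of 17370 genes did (2.63% lower and 2.13% higher), and the smallest adjusted p was 0.948. No member had groups that did not overlap, where 3.34% of all genes did, and the median log2 difference was -0.27 over the members and -0.06 over all genes. These medians were 0.02 and 0.03 without F2 PNO replicate 1. Gabra2 was at 12, 12.03, 14.88 and 15.15 FPKM in F1 PNO and at 4.18, 15.55, 13.17 and 11.24 FPKM in F2 PNO. Its log2 difference was -0.43 with F2 PNO replicate 1 and -0.02 without it. Gabrb2 was at 0.21, 4.28, 3.57 and 4.67 FPKM in F2 PNO, and its difference was -0.84 with that library and 0.11 without it. Of the other pathway genes, 0 of 29 were higher and 3 lower in F2 in saline pups, 1 of 30 higher and 1 lower in PNO pups, and 1 of 29 higher and 4 lower in IUO pups. In IUO pups these were Gabrg3 (-1.08), Nlgn2 (-0.60), Gabrg1 (-0.53), Abat (-0.52) and Gabarap (0.39), with the smallest adjusted p at 0.236 in limma.

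Whether a treatment difference itself differed between generations was tested as an interaction. Of 21 interaction tests of members, 0 had an unadjusted p under 0.05 in limma with all libraries, and the smallest unadjusted p was 0.127. Some members had one for IUO against SAL when F2 IUO replicate 4 was left out. The shares of all genes under 0.05 were 5.15% for the IUO and SAL contrast, 4.06% for the PNO and SAL contrast and 5.76% for that of IUO and PNO. For Gabra4, the PNO minus SAL difference of F2 minus that of F1 was -0.04 ± 0.33 on the log2 scale (SE, unadjusted p = 0.900 in limma). Of the other pathway genes, 1 of 31 (Slc6a13 at 1.81, adjusted p = 0.836 in limma) had an unadjusted p under 0.05 for IUO and PNO and 0 of 30 for each of the other contrasts. With F2 PNO replicate 1 left out it was 5 of 30 for IUO and PNO (Gabrg3, Slc6a13, Abat, Nlgn2 and Gabarap, smallest adjusted p of 0.277 in limma), where 12.2% of all genes passed, and 2 of 30 for PNO and SAL (Gabrg3 and Slc6a13), where 7.01% did. Without F2 PNO replicate 1, the IUO against PNO interaction had an unadjusted p of 0.0362 for Gabra2 (-0.56, adjusted p = 0.379 in limma) and 0.0426 for Gabrb2 (-1.42, adjusted p = 0.395 in limma). Leaving that library out moved the PNO against SAL interaction of Gabrb2 from -0.20 to 0.75 and that of Gabra2 from -0.02 to 0.39. The unadjusted p without it were 0.0606 and 0.0677 in limma.

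Across the 24 libraries, Gabrb2, Gabra2 and Gabra3 were the members most alike with all libraries included, as a description over libraries that share groups. Pearson r on the log2 scale was 0.83 for Gabra2 and Gabrb2, 0.81 for Gabra3 and Gabrb2 and 0.74 for Gabra2 and Gabra3. Without F2 PNO replicate 1 these were 0.64, 0.51 and 0.40, and the last then stood below Gabra2 with Gabra4 (0.51), Gabra4 with Gabrb1 (0.45) and Gabra2 with Gabrb1 (0.43). F2 IUO replicate 4 was then the lowest library for Gabra2, Gabra3 and Gabrb2 (6.12, 10.83 and 0.87 FPKM), and its part in these r was not tested. Gabra4, Gabra5 and Gabrd had an r between -0.14 and 0.24 with Gabrb2 with or without F2 PNO replicate 1. After centring on group means, the genes most like Gabrb2 among 10945 were Zdhhc17 (r = 0.974), a palmitoyltransferase, Gpr158 (0.968) and Ctnnd2 (0.965), a synaptic catenin. For Gabra2 they were Lpgat1 (0.935), Man1a2 (0.931) and Ptbp2 (0.929), and for Gabra3 Stam2 (0.936), Akap6 (0.929) and Sec23a (0.928). For Gabra4 they were Ube2g1 (0.883), Psma3l (0.877) and AABR07029605.1 (0.876). In a search without F2 PNO replicate 1, added after the data had been seen, r was 0.944, 0.910 and 0.912 for the 3 genes of Gabrb2, 0.717 to 0.768 for those of Gabra2, 0.748 to 0.779 for those of Gabra3 and 0.879 to 0.890 for those of Gabra4. Zdhhc17 then stayed first for Gabrb2, while Zswim3 (0.833), Myadm (0.812) and Necab1 (0.904) came first for Gabra2, Gabra3 and Gabra4. With all libraries the values were lower for Gabra5 (St6galnac5, 0.781), Gabrb1 (LOC100362027, 0.781, and 0.586 without that library) and Gabrd (Nit1, 0.840). Gabrb1 had an r of -0.645 with the level of cortical excitatory neuron markers (permutation p = 0.00218, 0.0417 after Benjamini-Hochberg adjustment), with rho at -0.428 (permutation p = 0.0383, 0.535 adjusted), r at -0.348 without the 2 libraries farthest from the median level, and r at -0.342 within F1 and -0.893 within F2. Without F2 PNO replicate 1 r was -0.458. With all libraries and centred on group means it was -0.668.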

How the data were processed

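NAc RNA of 24 P14 pups was sequenced by the authors, 4 per group, and groups were taken from the labels. The deposited values are FPKM for each gene, made with StringTie after transcriptomes were merged; the submitters' processing notes also name HISAT2, SAMtools and edgeR. Versions and the genome build are not given in the sources used here. Values were not rescaled between libraries, and counts were not analysed here, so depth is unknown and no counting interval is given. The members and gene lists were chosen with earlier results of these data known.

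Comparisons were made in R 4.3.3 with limma 3.58.1 (functions lmFit and eBayes, trend on) from log2(FPKM + 0.1), two-sided, over genes that reached FPKM 0.1 in 4 of the compared libraries, with Benjamini-Hochberg adjustment. A fold change on this scale understates that of low genes. Interactions used the 4 groups concerned. Members and list levels were tested by exact permutation (4 against 4), and relations with marker lists by 100000 permutations. The level of a list is the mean of log2(FPKM + 0.1) over its genes. Named genes were the members, up to 4 genes per pathway list with an unadjusted p under 0.05, and the 3 genes most correlated with each member among those with FPKM of at least 1 in all libraries. Lhfpl4 was followed in full because it passed adjustment. Gabarapl2, Pecam1 and Uty were not found by name. Some genes of the pathway lists are not reported here, and the counts leave them out. Alternatives were a pseudocount of 1, no filter, FPKM of at least 1, 2 rescalings, 1 fit of all libraries, a replicate block, marker covariates and leaving out each library. The limma procedure was tested on simulated data. Python 3.11.15, pandas 2.3.3, numpy 2.4.6, scipy 1.17.1 and matplotlib 3.10.9 handled tables and figures.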

Additional observations from a re-analysis of the deposited data

Results flagged for a closer look

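Of 42 groups of 4 libraries, 7 members in 6 groups, 2 held a library far from the other 3, where about 2.1 are flagged by chance. Both were F1 IUO replicate 4. Its Gabra5 level was 27.16 FPKM against 20.59 for the next highest, a gap of 0.859 of the range of the group. Its Gabrd level was 36.84 FPKM against 27.18, a gap of 0.843 of the range. Neither gene had an unadjusted p under 0.05 in a comparison with F1 IUO.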

How the results depend on the processing

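The count of members with an adjusted p under 0.05 was 0 in all 9 comparisons under every alternative that was run. Of 402 counts compared, 361 kept within 1.5 times the reported value and 41 moved. The counts at an unadjusted p under 0.05 that moved were as follows, the cause not being tested unless a covariate is named. Rescaling to equal FPKM sums gave 1 in place of 0 between F1 IUO and SAL, 1 in place of 2 between F1 IUO and PNO, and 0 in place of 1 between F2 IUO and PNO. Upper-quartile rescaling gave 1 for F2 PNO against SAL in place of 0. One fit of all 24 libraries, which shares 1 estimate of the spread, gave 1 for F1 PNO against SAL and 1 for F1 IUO against PNO in place of 2 each, 1 for F2 PNO against SAL in place of 0, and 0 for F2 SAL against F1 SAL in place of 3. With the thalamus covariate the first 3 of these were also 1. With the striatal covariate F1 PNO against SAL, F1 IUO against PNO and F2 IUO against SAL were each 1. With the cortical covariate the interaction of IUO against PNO was 2 in place of 0. Leaving out each library gave 0 to 1 between F1 IUO and SAL, 1 to 3 between F1 PNO and SAL, 1 to 3 between F1 IUO and PNO, 0 to 1 in each comparison within F2, 1 to 5 for F2 SAL against F1 SAL (5 without F2 SAL replicate 3), and 0 to 2 for the interactions of IUO against SAL (2 without F2 IUO replicate 4) and IUO against PNO (2 without F2 PNO replicate 1).

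The 11 member differences with an unadjusted p under 0.05 kept their direction in all 198 alternatives and a p under 0.05 in 156. The Gabrb2 difference of F1 IUO against PNO lost it in 1 of 18 (unadjusted p = 0.176 in one limma fit of all libraries), with adjusted p from 0.104 to 0.591. Gabra2 between F2 and F1 IUO kept it in all 18, with adjusted p from 0.114 to 0.416, and Gabra4 for F1 PNO against SAL lost it under 2 of 18, with adjusted p from 0.147 to 0.955. The 39 differences of other pathway genes kept their direction in all 710 alternatives and their call in 524. Equal-sum rescaling moved the all-gene median by 0.11 for F1 IUO minus PNO and -0.11 for F2 against F1 IUO, and upper-quartile rescaling by -0.12 for F1 IUO minus SAL, -0.12 for F1 IUO minus PNO and -0.16 for F2 IUO minus PNO. Replicate numbers did not pair the libraries, since same-numbered libraries had mean correlations of deviations of -0.0447 to 0.0316. With a replicate block the unadjusted count for F2 against F1 SAL was 2 in place of 3, since Gabra3 had an unadjusted p of 0.0719 in limma, and the block changed no other count. The files give no depth, so the smallest detectable difference at low FPKM, such as Gabrb2 at 0.21, is unknown.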
